A study of Mus musculus with 16 samples.

Results

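Laminins, integrins and the proteins that tie them into the basement membrane were followed in the facial prominences of mouse embryos, the tissue buds that form the face, where a surface ectoderm lies on mesenchyme. The set was a fixed list of 36 genes, collagens excluded, chosen by symbol from the deposited expression table: 10 laminin chains, 12 integrin alpha and 6 integrin beta subunits, 2 nidogens, perlecan, agrin, dystroglycan and 3 Fras and Frem proteins. All 36 were found, each in 1 row, among 30286 distinct symbols. C57BL/6 embryos at embryonic day 12 were compared in 4 groups: KO ectoderm and WT ectoderm, and KO mesenchyme and WT mesenchyme. KO embryos were Esrp1-/-, lacking a splicing regulator of epithelial cells, and WT embryos were wild-type. Each group had 4 libraries (16 in all), each from a pool of 6 to 7 embryos whose layers had been separated surgically.

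Basement membranes are thin sheets of matrix under epithelia and around vessels, muscle and nerves. Laminin trimers of an alpha, a beta and a gamma chain form the first network of the sheet, nidogens and the proteoglycans perlecan and agrin connect it with collagen IV, and integrins and dystroglycan anchor cells to it. Integrins are pairs of an alpha and a beta subunit, and the pairing sets which ligand is bound: laminins, collagens, or proteins with an RGD motif such as fibronectin. In embryonic skin both layers feed the sheet, with epithelium and mesenchyme making different chains.

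The table gives 1 TPM value per gene and group (transcripts per 1000000, which corrects for transcript length, so that levels of different genes can be compared). The spread among the 4 libraries of a group is therefore not in the table, the depth behind a value is unknown, and no error, p-value or test is given. A log2 ratio is that of TPM + 1, which understates changes of low genes, and a gene was measured in a comparison where the mean of its groups was at least 1 TPM. "Higher" and "lower" below mean at least 1.5-fold on that scale between KO and WT and at least 2-fold between layers, in the deposited values. Esrp1 itself was at 62.9 TPM in KO ectoderm and 170.0 TPM in WT ectoderm, and at 1.0 TPM in KO mesenchyme and 1.01 TPM in WT mesenchyme. The deleted part of the gene is not given in the labels, so this level does not check the deletion itself. The 11 surface ectoderm markers summed to 2512 TPM in KO ectoderm, 2789 TPM in WT ectoderm, 36.5 TPM in KO mesenchyme and 36.1 TPM in WT mesenchyme. The 12 mesenchyme markers summed to 719.55 TPM in KO ectoderm, 368 TPM in WT ectoderm, 2601 TPM in KO mesenchyme and 3434 TPM in WT mesenchyme, with no marker of either list at 0 in all groups. In such bulk samples fewer cells of a type and less RNA per cell cannot be told apart.

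**Figure D1:**
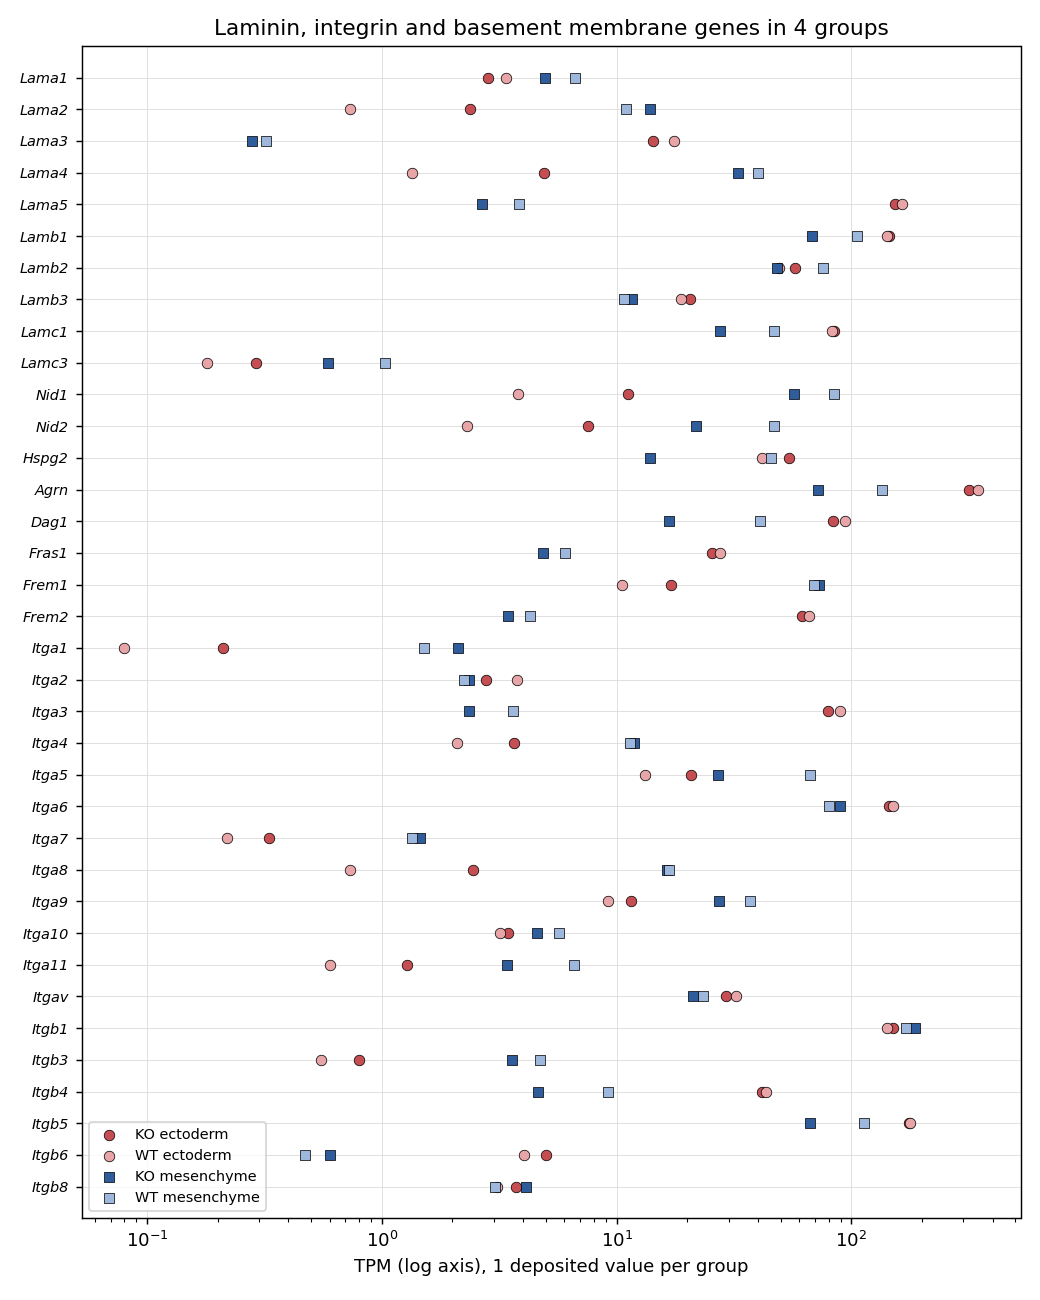
TPM (log axis) of the 36 members, 1 point per group: circles are ectoderm and squares mesenchyme, dark for KO and light for WT. Circles and squares lie far apart for Lama3, Lama4, Lama5, Itga3, Nid1 and Nid2 and close together for Itgb1, Itgb8 and Itgav, and light squares lie well right of dark ones for Hspg2, Itga5 and Dag1.

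The laminin alpha chains separated the layers. Lama5, the alpha chain of most epithelial basement membranes, was at 154 TPM in KO ectoderm and 165 TPM in WT ectoderm, and at 2.66 TPM in KO mesenchyme and 3.86 TPM in WT mesenchyme. Lama3, which joins Lamb3 in the laminin that holds basal cells to the sheet, was at 14.3 TPM in KO ectoderm and 17.55 TPM in WT ectoderm, and at 0.28 TPM in KO mesenchyme and 0.32 TPM in WT mesenchyme. Lama4, a chain of vessels and mesenchyme, had the opposite pattern, with 4.9 TPM in KO ectoderm, 1.35 TPM in WT ectoderm, 33.0 TPM in KO mesenchyme and 40.1 TPM in WT mesenchyme. Lama2, best known from muscle and nerve, was at 2.37 TPM in KO ectoderm, 0.73 TPM in WT ectoderm, 13.9 TPM in KO mesenchyme and 10.99 TPM in WT mesenchyme. Lama1, the chain of the earliest embryonic sheets, was low everywhere, between 2.83 TPM in KO ectoderm and 6.63 TPM in WT mesenchyme. Lama5 made up 86.3% of the summed alpha chain TPM in KO ectoderm and 87.7% in WT ectoderm, and Lama4 made up 60.2% in KO mesenchyme and 64.8% in WT mesenchyme. The leading alpha chain of each layer was thus the same in KO and WT, and the share of Lama2 in mesenchyme was 25.3% in KO and 17.8% in WT.

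**Figure D2:**
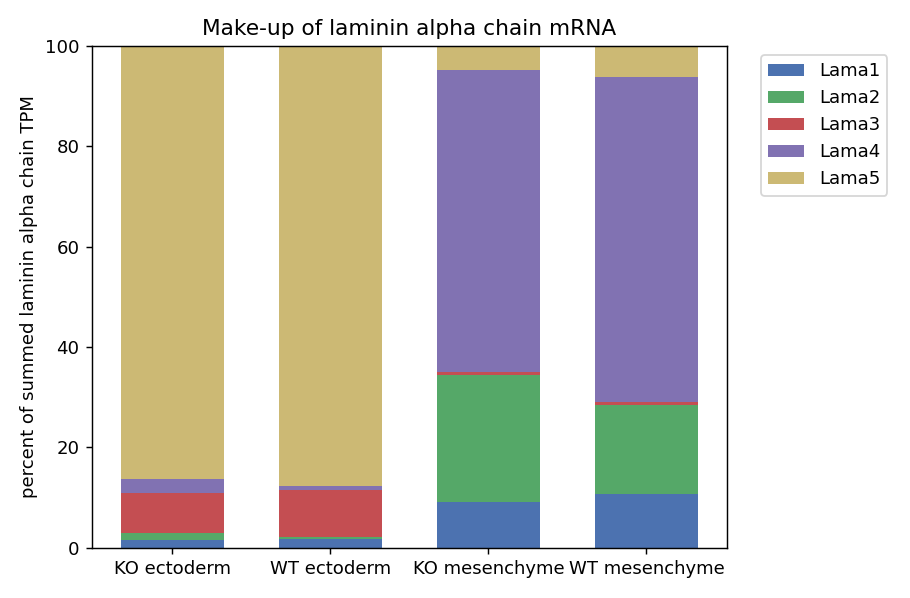
Share of each alpha chain (stacked bars, percent of the summed TPM of the 5 alpha chains) in each group. Lama5 fills 86.3% and 87.7% of the KO and WT ectoderm bars, and Lama4 60.2% and 64.8% of the KO and WT mesenchyme bars.

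Beta and gamma chains were shared between layers. Lamb1 was at 144 TPM in KO ectoderm and 142 TPM in WT ectoderm, and at 68.1 TPM in KO mesenchyme and 105 TPM in WT mesenchyme, where it was lower in KO (log2 ratio -0.62). Lamc1, the gamma chain of most trimers, was at 84.6 TPM in KO ectoderm and 82.6 TPM in WT ectoderm, and at 27.7 TPM in KO mesenchyme and 47.0 TPM in WT mesenchyme (-0.74). Lamb2, the beta chain of muscle, nerve and kidney sheets, was at 57.75 TPM in KO ectoderm and 49.4 TPM in WT ectoderm, and at 48.1 TPM in KO mesenchyme and 75.5 TPM in WT mesenchyme (-0.64). All 3 chains were thus lower in KO mesenchyme, as were 13.4% of all genes, and within 1.5-fold in ectoderm. In mesenchyme all 3 came within 1.5-fold with quantile normalization and after subtraction of the GC trend described below. Lamc3 stayed between 0.18 TPM in WT ectoderm and 1.03 TPM in WT mesenchyme and was measured in no comparison. Lamb3 did not follow its partner Lama3 across the layers. It was at 20.55 TPM in KO ectoderm and 18.8 TPM in WT ectoderm, and still at 11.65 TPM in KO mesenchyme and 10.7 TPM in WT mesenchyme, where Lama3 was under 1 TPM. The ratio of Lama3 to Lamb3 was 0.697 in KO ectoderm, 0.932 in WT ectoderm, 0.024 in KO mesenchyme and 0.03 in WT mesenchyme.

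The nidogens, small proteins that bridge laminin and collagen IV, had their highest levels in mesenchyme and were higher in KO than in WT ectoderm, and Nid2 was also lower in KO than in WT mesenchyme. Nid1 (chromosome 13, 13437551 to 13512269, plus strand, GRCm38) was at 11.2 TPM in KO ectoderm and 3.8 TPM in WT ectoderm (log2 ratio 1.34), and at 57.0 TPM in KO mesenchyme and 84.8 TPM in WT mesenchyme (-0.56, just inside 1.5-fold). Nid2 (chromosome 14, 19751265 to 19811787, plus strand) was at 7.57 TPM in KO ectoderm and 2.3 TPM in WT ectoderm (1.38), and at 21.8 TPM in KO mesenchyme and 46.9 TPM in WT mesenchyme (-1.07). Both had their highest value in WT mesenchyme and their lowest in WT ectoderm, so that the gap between the layers was narrower in KO: the mesenchyme level of Nid2 was 2.88 times the ectoderm level in KO and 20.4 times it in WT. An exon of Nid2 overlaps Rtraf on the other strand by up to 437 bases. Whether strand was used in the quantification is not given in the sources used here.

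Perlecan, agrin and dystroglycan were higher in ectoderm than in mesenchyme of KO embryos and lower in KO than in WT mesenchyme. Hspg2, which encodes perlecan, was at 54.5 TPM in KO ectoderm and 41.5 TPM in WT ectoderm, and at 13.8 TPM in KO mesenchyme and 45.4 TPM in WT mesenchyme. Its KO mesenchyme value was 30.4% of WT, a log2 ratio of -1.65, the lowest of the set. The WT layers were nearly level for Hspg2 (log2 ratio -0.13), while KO ectoderm was 3.95-fold above KO mesenchyme. Dag1, the receptor dystroglycan, was at 83.2 TPM in KO ectoderm and 93.6 TPM in WT ectoderm, and at 16.8 TPM in KO mesenchyme and 40.7 TPM in WT mesenchyme (-1.23). Agrn, a proteoglycan that binds laminin and dystroglycan, had the highest levels of the set in ectoderm, with 317 TPM in KO ectoderm and 346 TPM in WT ectoderm, against 72.4 TPM in KO mesenchyme and 135 TPM in WT mesenchyme (-0.89). Summed over nidogens, perlecan and agrin, the level was 389.97 TPM in KO ectoderm and 393 TPM in WT ectoderm, and 165 TPM in KO mesenchyme and 312 TPM in WT mesenchyme. Agrn alone made up 81.2% of this sum in KO ectoderm and 87.9% in WT ectoderm. Its part was 43.9% in KO mesenchyme and 43.2% in WT mesenchyme.

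The promoter windows shown are those of the 3 members with the lowest KO to WT ratio in mesenchyme among those with an entry, a choice made by that ratio alone. They come from RefSeq (GRCm38.p6), run 5′ to 3′ on the gene's strand from 250 bases before to 50 after the start, and capitals mark the GC box GGGCGG, or CCGCCC where it lies on the other strand. The Hspg2 window is chr4:137468553-137468852 on the plus strand, the Itga5 window chr15:103366742-103367041 on the minus strand, and the Dag1 window chr9:108263909-108264208 on the minus strand (the outer of 2 starts).
Hspg2: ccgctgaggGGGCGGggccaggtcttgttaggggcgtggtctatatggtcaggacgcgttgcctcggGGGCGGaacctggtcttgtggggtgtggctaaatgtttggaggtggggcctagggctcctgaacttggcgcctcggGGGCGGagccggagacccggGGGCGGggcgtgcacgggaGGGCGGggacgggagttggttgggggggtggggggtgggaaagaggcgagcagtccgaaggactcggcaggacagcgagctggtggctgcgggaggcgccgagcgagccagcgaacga
Itga5: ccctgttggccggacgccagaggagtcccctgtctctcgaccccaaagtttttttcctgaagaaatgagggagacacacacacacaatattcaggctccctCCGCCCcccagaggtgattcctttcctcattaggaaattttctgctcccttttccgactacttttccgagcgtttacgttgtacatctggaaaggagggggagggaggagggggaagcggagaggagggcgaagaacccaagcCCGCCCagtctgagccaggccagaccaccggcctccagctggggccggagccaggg
Dag1: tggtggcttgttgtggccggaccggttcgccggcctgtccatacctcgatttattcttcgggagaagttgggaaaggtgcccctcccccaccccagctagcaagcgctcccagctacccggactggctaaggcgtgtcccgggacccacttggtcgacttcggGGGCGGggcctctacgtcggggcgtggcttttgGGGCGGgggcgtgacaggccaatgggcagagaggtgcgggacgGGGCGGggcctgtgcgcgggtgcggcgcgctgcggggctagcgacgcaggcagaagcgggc
The Hspg2 window holds 5 GC boxes and is 70.3% G and C, that of Itga5 holds 2 (58.7%) and that of Dag1 holds 3 (69.7%). Of the 36 members, 25 had a window, 31 windows in all. A GC box on either strand was found in 8 of 10 windows of the 8 members lower in KO mesenchyme (80.0%), in 9 of 21 windows of the other members (42.9%) and in 35.7% of all 32851 windows. The core CTTTGAA bound by TCF and LEF factors, also searched on both strands, was in 0 of those 10 windows, in 2 of the 21 and in 5.14% of all, and the AP-2 palindrome GCCNNNGGC was in 2, in 3 and in 16.6%. The median GC content was 66.8% over those 10 windows, 59.3% over the 21 and 52.7% over all, and GGGCGG is itself made of G and C. Of the 11 members lower in KO mesenchyme, 7 were within 1.5-fold after a trend with transcript GC was subtracted, as given below. Matches of the 3 motifs were counted separately and may overlap.

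The Fras and Frem proteins, which form a complex in the sheet under epithelia and whose loss gives blisters in mouse embryos, were split between layers and close between KO and WT. Frem2 was at 61.5 TPM in KO ectoderm and 65.7 TPM in WT ectoderm, against 3.44 TPM in KO mesenchyme and 4.28 TPM in WT mesenchyme. Fras1 was at 25.5 TPM in KO ectoderm and 27.5 TPM in WT ectoderm, against 4.86 TPM in KO mesenchyme and 6.01 TPM in WT mesenchyme. Frem1, the partner secreted by mesenchyme, was at 17.1 TPM in KO ectoderm and 10.5 TPM in WT ectoderm (log2 ratio 0.65), against 73.0 TPM in KO mesenchyme and 69.0 TPM in WT mesenchyme. Frem1 in ectoderm was the 1 KO difference beyond 1.5-fold among the 3. The ratio of Fras1 to Frem2 in ectoderm was 0.415 in KO and 0.418 in WT. Grip1, an adaptor that brings Fras1 to the cell surface, was at 13.9 TPM in KO ectoderm and 15.3 TPM in WT ectoderm.

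Laminin-binding integrins were led by Itga6, and Itga3 and Itgb4 were largely ectodermal. Itga6 was at 145 TPM in KO ectoderm and 149.9 TPM in WT ectoderm, and at 89.1 TPM in KO mesenchyme and 80.2 TPM in WT mesenchyme. Its alternative tail is spliced under the control of ESRP proteins in human cells, and these values per gene do not separate splice forms. Itgb4, which pairs with Itga6 in hemidesmosomes, the rivets between basal cells and the sheet, was at 41.7 TPM in KO ectoderm and 43.4 TPM in WT ectoderm, against 4.61 TPM in KO mesenchyme and 9.19 TPM in WT mesenchyme (-0.86). Itga3, which pairs with Itgb1 in epithelia, was at 79.2 TPM in KO ectoderm and 89.4 TPM in WT ectoderm, against 2.36 TPM in KO mesenchyme and 3.62 TPM in WT mesenchyme. Itga7, the laminin receptor of muscle, did not exceed the 1.46 TPM of KO mesenchyme. In ectoderm the ratio of Itga6 to Itgb4 was 3.48 in KO and 3.46 in WT. Of 6 other hemidesmosome anchors and basal keratins (Col17a1, Cd151, Dst, Plec, Krt5 and Krt14) 0 were 1.5-fold apart in ectoderm. Few genes were: 4.93% of all genes measured there were higher in KO and 0.452% lower. Col17a1, a collagen of hemidesmosomes, was at 111.6 TPM in KO ectoderm and 112.8 TPM in WT ectoderm, and Plec, the plectin that ties them to keratin, at 17.2 TPM in KO ectoderm and 14.2 TPM in WT ectoderm. In mesenchyme Plec was lower, at 4.58 TPM in KO and 9.15 TPM in WT, and within 1.5-fold (-0.42) after subtraction of the GC trend described below.

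Among the subunits that bind RGD ligands, Itga5 stood apart. Itga5, the fibronectin receptor (chromosome 15, 103344286 to 103366763, minus strand), was at 20.7 TPM in KO ectoderm and 13.2 TPM in WT ectoderm (log2 ratio 0.61), and at 27.1 TPM in KO mesenchyme and 67.0 TPM in WT mesenchyme (-1.28). It supplied 12.9% of the summed integrin alpha TPM in KO mesenchyme and 26.1% in WT mesenchyme, and Itga6 supplied 42.6% in KO mesenchyme and 31.3% in WT mesenchyme. Fn1, which encodes fibronectin, was at 141 TPM in KO ectoderm and 99.5 TPM in WT ectoderm, and at 252 TPM in KO mesenchyme and 515 TPM in WT mesenchyme (-1.03), so that receptor and ligand were both lower in KO mesenchyme. Itga8, the receptor of nephronectin, was at 2.44 TPM in KO ectoderm and 0.73 TPM in WT ectoderm (0.99), and at 16.45 TPM in KO mesenchyme and 16.7 TPM in WT mesenchyme. Its ligand Npnt lay on the other side of the interface, at 74.3 TPM in KO ectoderm and 108 TPM in WT ectoderm (-0.54), against 10.2 TPM in KO mesenchyme and 13.35 TPM in WT mesenchyme. Itgav was at 29.4 TPM in KO ectoderm, 32.4 TPM in WT ectoderm, 21.2 TPM in KO mesenchyme and 23.3 TPM in WT mesenchyme.

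Of the RGD-binding beta subunits that pair with Itgav besides Itgb1, Itgb5 had the highest level in both layers, at 177 TPM in KO ectoderm and 178 TPM in WT ectoderm, and at 66.5 TPM in KO mesenchyme and 113 TPM in WT mesenchyme (-0.76). Itgb6, an epithelial activator of latent TGF-beta, was at 5.02 TPM in KO ectoderm and 4.05 TPM in WT ectoderm, and at 0.6 TPM in KO mesenchyme and 0.47 TPM in WT mesenchyme. Itgb8, which also activates TGF-beta, was at 3.74 TPM in KO ectoderm and 3.11 TPM in WT ectoderm, and at 4.11 TPM in KO mesenchyme and 3.03 TPM in WT mesenchyme. Itgb3, shared by vessel cells and platelets, was at 0.8 TPM in KO ectoderm and 0.55 TPM in WT ectoderm, and at 3.58 TPM in KO mesenchyme and 4.74 TPM in WT mesenchyme. Its platelet partner Itga2b was at 6.05 TPM in KO mesenchyme and 11.5 TPM in WT mesenchyme (-0.82, and -0.45 after that subtraction). Itgb1, the beta subunit shared by most pairs, was the most even of the abundant members, at 150.4 TPM in KO ectoderm, 142 TPM in WT ectoderm, 187 TPM in KO mesenchyme and 171 TPM in WT mesenchyme.

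The remaining alpha subunits were low in ectoderm. Itga9, a tenascin receptor, was at 11.5 TPM in KO ectoderm and 9.22 TPM in WT ectoderm, and at 27.2 TPM in KO mesenchyme and 36.9 TPM in WT mesenchyme. Itga4, a receptor of fibronectin and of vascular adhesion proteins, was at 3.67 TPM in KO ectoderm and 2.09 TPM in WT ectoderm (log2 ratio 0.60), and at 11.9 TPM in KO mesenchyme and 11.4 TPM in WT mesenchyme. Both were genes of the mesenchyme in WT and KO. The 4 collagen-binding subunits Itga1, Itga2, Itga10 and Itga11 did not exceed 6.56 TPM and together summed to 7.71 TPM in KO ectoderm, 7.63 TPM in WT ectoderm, 12.45 TPM in KO mesenchyme and 16.0 TPM in WT mesenchyme. Itga11, a collagen receptor of fibroblasts, was at 1.28 TPM in KO ectoderm and 0.6 TPM in WT ectoderm, and at 3.4 TPM in KO mesenchyme and 6.56 TPM in WT mesenchyme (-0.78). Integrins of leukocytes outside the set (Itgad, Itgae, Itgal, Itgam, Itgax, Itgb2 and Itgb7) reached at most the 1.98 TPM of Itgb7 in WT ectoderm, where KO ectoderm had 1.88 TPM.

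Set beside all genes, the members were unevenly shared between the layers. Lama2, Itga8, Itga11 and Itgb3 in WT passed the filter through mesenchyme alone, and Lama3 and Itgb6 through ectoderm alone. In WT, 9 of 33 measured members were at least 2-fold higher in ectoderm than in mesenchyme (Lama3, Lama5, Agrn, Dag1, Fras1, Frem2, Itga3, Itgb4 and Itgb6), where 6.89% of all genes measured were. At least 2-fold lower in WT ectoderm were 11 (Lama2, Lama4, Nid1, Nid2, Frem1, Itga4, Itga5, Itga8, Itga9, Itga11 and Itgb3), where 12.1% of all genes were. Between the KO layers, 13 of 34 were higher in ectoderm (9.06% of all genes) and 10 lower (6.88%). Of these, Itga1 and Itgb3 passed the filter through KO mesenchyme alone, and Lama3 and Itgb6 through KO ectoderm alone, so that their direction was fixed. Lamb1, Lamc1, Hspg2 and Itgb5 were 2-fold higher in ectoderm in KO and not in WT, and each was lower in KO than in WT mesenchyme. The call of Lamb1 was near the limit (1.07) and was lost with quantile normalization (0.97) and after GC subtraction (0.96). Itga5 was 2-fold lower in ectoderm in WT and not in KO (-0.37). Itga11, at -0.95 between the KO layers, passed 2-fold with a pseudocount of 0.1 TPM (-1.34), after GC subtraction (-1.19) and after subtraction of the mesenchyme share described below (-1.43).

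In KO ectoderm the members that were higher than in WT were genes of the mesenchyme. Of 31 measured members 8 were higher (Lama2, Lama4, Nid1, Nid2, Frem1, Itga4, Itga5 and Itga8) and 0 lower, where 4.93% and 0.452% of all genes were. Their log2 ratios ran from 0.60 to 1.38, the median of the measured members was 0.09, and that of all genes was 0.05. For each of the 8, the level in WT mesenchyme was at least 5 times that in WT ectoderm. Lama2 and Itga8, under 1 TPM in WT ectoderm, were measured only through their KO value. Of the 9 members at least 2-fold higher in ectoderm in WT, 0 were 1.5-fold apart between KO and WT ectoderm, with KO values from 81.6% (Lama3) to 124% (Itgb6) of WT. Quantile normalization left 5 higher (Lama2, Lama4, Nid1, Nid2 and Itga8), where 3.32% of all genes were. Itga5 and Itga4, nearest the limit, were within 1.5-fold once the columns were rescaled to the same sum (0.56 each), and Itga5 also after GC subtraction (0.52). Not measured in ectoderm were Lamc3, Itga1, Itga7, Itga11 and Itgb3.

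Markers of mesenchyme moved with this result. Of 12 mesenchyme markers 9 were higher in KO ectoderm and 0 lower, as were 9 of 9 endothelial markers, whose sum was 34.8 TPM in KO ectoderm and 9.04 TPM in WT ectoderm, and 6 of 6 measured skeletal muscle markers, with a sum of 62.1 TPM in KO ectoderm and 14.7 TPM in WT ectoderm. Of these, 5 endothelial (Kdr, Tek, Tie1, Emcn and Cldn5) and 3 muscle markers (Myod1, Myh3 and Des) were under 1 TPM in WT ectoderm and were measured only through their KO value, so that they had to differ. Of markers of other types, 4 of 5 of neurons, 3 of 5 measured of macrophages, 2 of 4 of platelets, 2 of 3 of cartilage, 1 of 4 of Schwann cell precursors and 1 of 4 of red blood cells were higher in KO ectoderm, and 0 were lower. Ppbp of platelets and Matn4 of cartilage, both counted as higher, were also under 1 TPM in WT ectoderm and measured only through their KO value. The 10 mesenchyme markers at least 5-fold higher in WT mesenchyme gained a median of 10.9% of their mesenchyme excess in KO ectoderm (range 6.51 to 14.9%). The gain is KO minus WT ectoderm, and the excess WT mesenchyme minus WT ectoderm. For the 9 members with the same enrichment and at least 5 TPM in WT mesenchyme, the gain was 11.4% (range 9.09 to 17.0%). It was 9.09% for Nid1, 9.16% for Lama4, 10.7% for Itga8, 11.2% for Frem1, 11.8% for Nid2, 13.9% for Itga5, 16.0% for Lama2 and 17.0% for Itga4. The share of 10.9% was set from marker gains in these same ectoderm columns. Subtracting it removes a gain of that size whatever its source, and the source was not tested. When 10.9% of the WT mesenchyme profile was subtracted from KO ectoderm, 0 of 29 measured members remained higher, where 2.6% of all genes were. Nid1 was then lower (-0.63, 2.11 TPM after subtraction), where 0.716% of all genes were, and Lama4 and Itga8 fell under the filter at 0.57 and 0.68 TPM. After the same subtraction 3 of 5 measured markers of neurons, 2 of 5 of macrophages and 2 of 12 of mesenchyme were higher. So were 1 of 4 measured of muscle and 1 of 2 of cartilage. Of the markers still measured, 0 of 2 endothelial, 0 of 2 platelet and 0 of 4 Schwann cell precursor markers were higher. The other endothelial markers had fallen under the filter. Lower were 2 of mesenchyme (Pdgfrb and Twist1) and 2 of 4 of red blood cells (Hbb-y and Hba-x). With the share taken from KO mesenchyme instead (14.6%), a setting chosen after the data were seen, Nid2 was the 1 member higher (0.90), where 3.03% of all genes were.

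**Figure D3:**
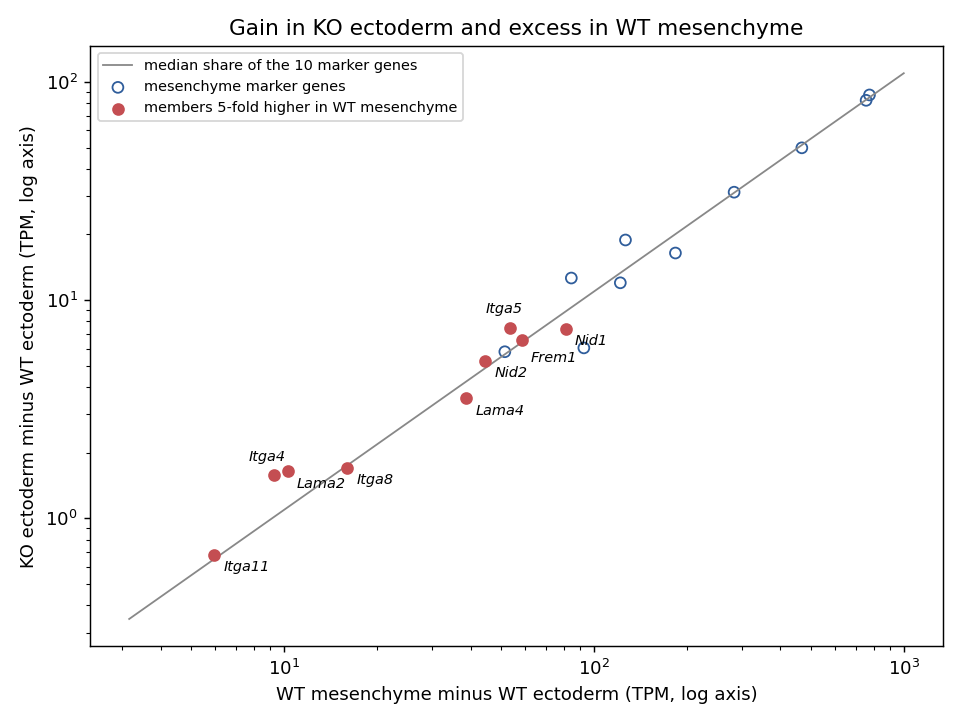
KO ectoderm minus WT ectoderm against WT mesenchyme minus WT ectoderm (TPM, log axes) for the 9 members (filled points) and the 10 mesenchyme markers (open circles) at least 5-fold higher in WT mesenchyme. The line marks the median share of the markers, 10.9%, and the members lie along it, with shares from 9.09% to 17.0%.

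In KO mesenchyme, chains and linkers of the sheet and several receptors were lower than in WT. Of 33 measured members 11 were lower and 0 higher, where 13.4% and 2.35% of all genes were. Lower were Hspg2, Itga5, Dag1, Nid2, Agrn, Itgb4, Itga11, Itgb5, Lamc1, Lamb2 and Lamb1, with log2 ratios from -1.65 to -0.62. The median of the measured members was -0.33, and that of all genes was -0.12. Near WT were, among others, Itgb1, Itga6, Itgav, Itga4, Itga8, Frem1, Lama2 and Lamb3, with KO values between 90.7% and 126% of WT. Lama3, Lamc3 and Itgb6 were not measured. Of the 12 mesenchyme markers 4 were lower in KO mesenchyme (Pdgfrb, Col1a1, Col1a2 and Twist1) and 0 higher. Endothelial markers, of cells that make their own sheet, were lower for 3 of 9 and summed to 194.7 TPM in KO mesenchyme and 267 TPM in WT mesenchyme. Skeletal muscle markers were lower for 3 of 8 and summed to 248 TPM in KO mesenchyme and 333 TPM in WT mesenchyme. Neuron markers were higher for 3 of 5 and summed to 219.75 TPM in KO mesenchyme and 142 TPM in WT mesenchyme. Cartilage markers were lower for 2 of 4, those of platelets for 1 of 5, those of Schwann cell precursors for 1 of 4 measured and those of macrophages for 0 of 6. After subtraction of the GC trend described below, 3 of 12 mesenchyme, 2 of 9 endothelial, 1 of 8 muscle and 1 of 4 cartilage markers were lower. Platelets and Schwann cell precursors then had 1 lower marker each, and 3 of 5 neuron markers were higher. Of all genes 5.86% were then lower. The part of these cell types in the result was not tested.

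The KO to WT ratio in mesenchyme moved with the GC content of the transcript across all genes at 5 TPM or more. Genes under 45% GC had a median log2 ratio of 0.14 and those from 55 to 60% GC of -0.49. Of the members, 0 of 7 were lower under 45% GC and 0 of 3 from 45 to 50%, where 0.627% and 4.32% of all genes were. From 50 to 55% GC 4 of 12 members were lower (19.7% of all genes), from 55 to 60% 5 of 9 (39.0%), and above that both, Hspg2 and Itgb4 (48.3%). After the trend with GC was subtracted, 4 members were lower (Hspg2 at -1.21, Dag1 at -1.05, Itga5 at -0.93 and Nid2 at -0.82), where 5.86% of all genes were, and the median was -0.22. These 4 also remained after GC and length trends were subtracted, where 5.41% of all genes were lower. Lamc1 (-0.55), Agrn (-0.56), Itga11 (-0.49), Lamb1 (-0.45), Itgb4 (-0.44), Itgb5 (-0.42) and Lamb2 (-0.25) were then within 1.5-fold. Quantile normalization, which raised the median of all genes from -0.12 to 0.02, left 7 lower (6.88% of all genes), without Lamb1, Lamb2, Lamc1 and Itgb5.

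**Figure D4:**
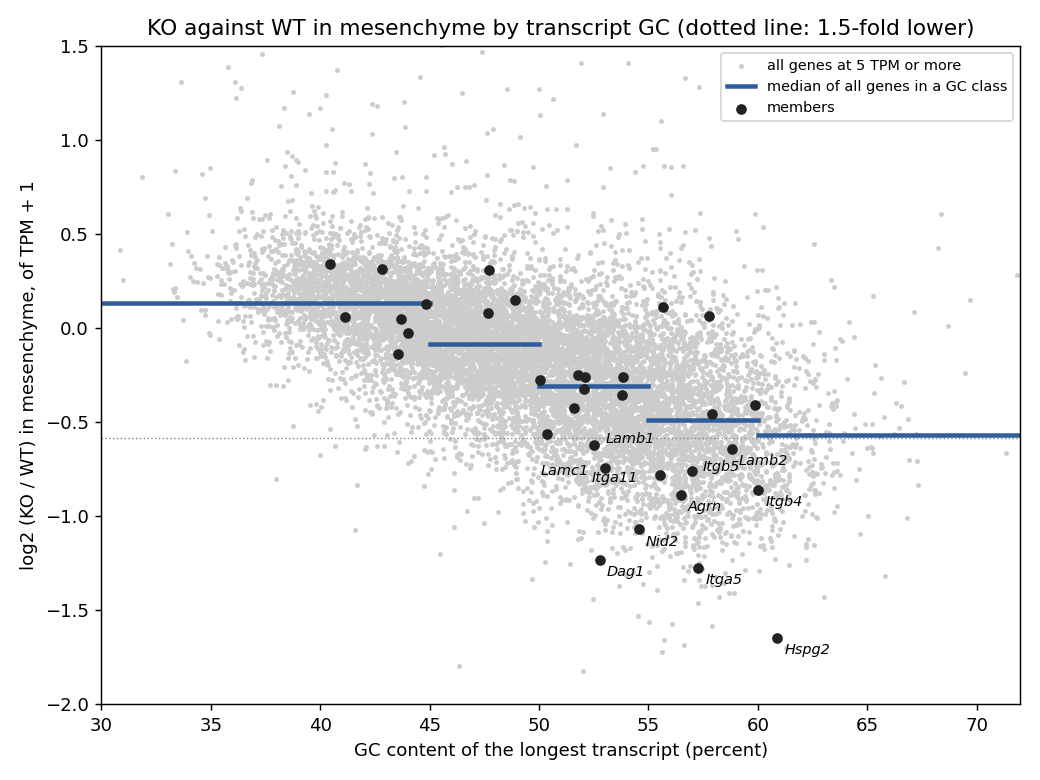
Log2 ratio of KO to WT in mesenchyme against the GC content of the longest transcript for all genes at 5 TPM or more (grey) and the measured members (black), with blue bars at the median of all genes per GC class. The bars step down from 0.14 to -0.57, and Hspg2, Itga5, Dag1 and Nid2 lie furthest below the bar of their class.

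Setting the 2 KO effects side by side, Nid2 and Itga5 were higher in KO ectoderm and lower in KO mesenchyme. The ectoderm effect minus the mesenchyme effect was at least 1 on the log2 scale for 8 of 33 members (Nid2 2.45, Hspg2 2.03, Nid1 1.91, Itga5 1.89, Lama4 1.60, Itga11 1.29, Dag1 1.06 and Itga8 1.02), where 7.34% of all genes were, and at most -1 for 0, where 0.593% were. Its median was 0.57 over the members and 0.19 over all genes. After subtraction of the WT mesenchyme share Hspg2, Itga5, Dag1 and Nid2 remained, where 4.48% of all genes did. Dag1 was within 2-fold with quantile normalization (0.82) and after GC subtraction (0.88). So were Itga8 with quantile normalization (0.62) and Itga11 after GC subtraction (0.96). Itga11 was under the filter in ectoderm and entered through mesenchyme, and Itga8 was under 1 TPM in WT ectoderm.

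**Figure D5:**
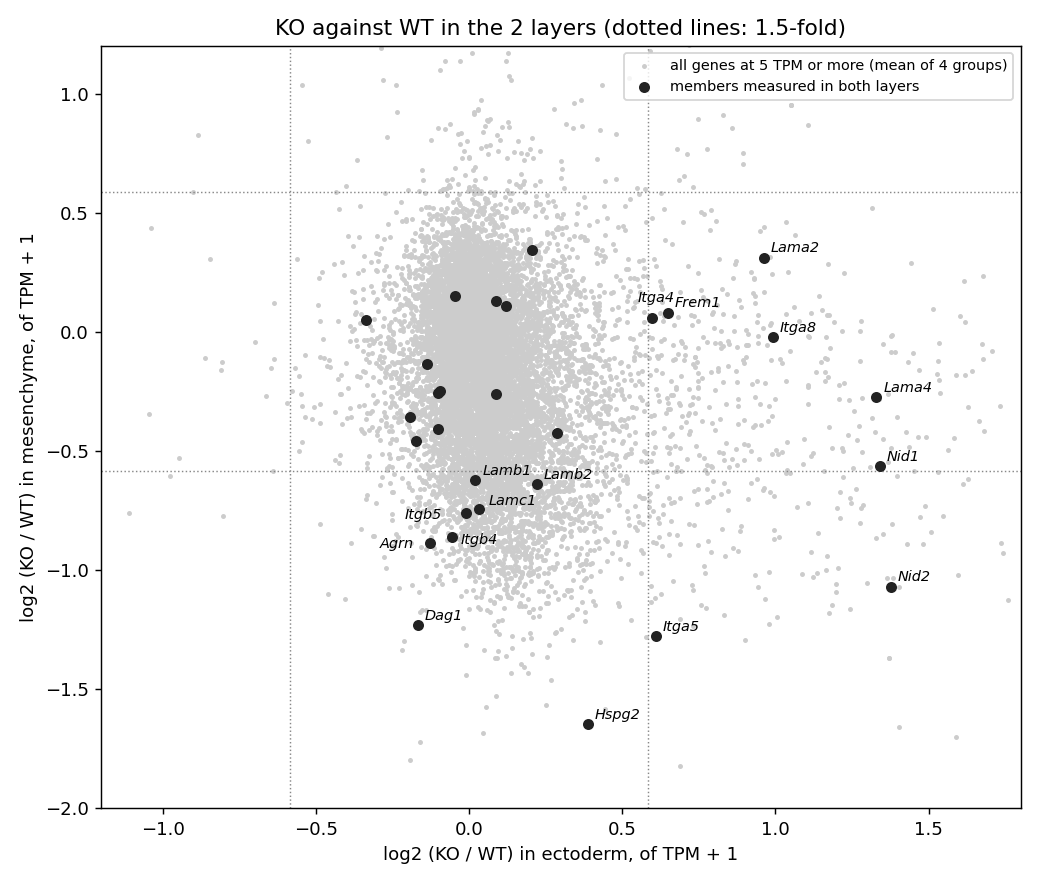
Log2 ratio of KO to WT in ectoderm (horizontal) and in mesenchyme (vertical) for the members measured in both layers (black) and all genes at 5 TPM or more within the plotted range (grey); dotted lines mark 1.5-fold. Nid2 and Itga5 lie beyond both lines at the lower right, Lama4, Lama2, Itga8, Nid1, Itga4 and Frem1 to the right and Hspg2 and Dag1 at the bottom.

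Among genes that work with the members, differences lay mostly in mesenchyme, downward. Of all genes measured there, 13.4% were lower and 2.35% higher. Of 15 measured cytoplasmic partners of integrins 7 were lower in KO mesenchyme (Tln1, Parva, Parvb, Pxn, Zyx, Src and Bcar1) and 0 higher, with a median of -0.48. After GC subtraction 3 were lower (Parva, Parvb and Zyx), where 5.86% of all genes were. Tln1, the talin that links integrin tails to actin, was at 41.0 TPM in KO mesenchyme and 73.9 TPM in WT mesenchyme. Zyx, a protein of focal adhesions, was at 49.6 TPM in KO ectoderm and 32.6 TPM in WT ectoderm (0.59), and at 39.7 TPM in KO mesenchyme and 84.2 TPM in WT mesenchyme (-1.07). Fermt1, the kindlin of epithelia, was at 46.0 TPM in KO ectoderm and 61.2 TPM in WT ectoderm, and at 0.47 TPM in KO mesenchyme and 0.32 TPM in WT mesenchyme.

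Among 17 measured integrin ligands and other proteins of the sheet, 8 were lower in KO mesenchyme (Fn1, Tnc, Fbln1, Fbln2, Smoc1, Smoc2, Pxdn and Ltbp1) and Vtn was higher, at 3.6 TPM in KO mesenchyme and 0.88 TPM in WT mesenchyme, measured only through its KO value. Their median was -0.57, and of all genes measured 13.4% were lower and 2.35% higher. After GC subtraction 5 were lower and 1 higher, where 5.86% and 2.72% of all genes were. Tnc, the tenascin bound by Itga9, was at 8.57 TPM in KO ectoderm and 3.15 TPM in WT ectoderm (1.21), and at 29.3 TPM in KO mesenchyme and 59.4 TPM in WT mesenchyme (-0.99). Tnc and Smoc1 were the 2 of 15 higher in KO ectoderm, where 4.93% of all genes were. After subtraction of the mesenchyme share 0 were, where 2.6% of all genes were. The collagen IV chains, to which nidogens and perlecan bind, were also lower: Col4a1 was at 68.1 TPM in KO mesenchyme and 153 TPM in WT mesenchyme, and Col4a2 at 38.0 TPM in KO mesenchyme and 83.4 TPM in WT mesenchyme. Both remained lower after GC subtraction.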

How the data were processed

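RNA of facial ectoderm and mesenchyme was measured in 16 libraries of 4 groups. The authors deposited TPM per gene symbol, as 1 value for each group. The submitters' processing notes name STAR 2.5.2a, kallisto 0.43.0 and mm10. How they were used, the annotation and how libraries were merged is not given in the sources used here. By the labels, 2 libraries of KO ectoderm, 1 of WT ectoderm, 2 of KO mesenchyme and 0 of WT mesenchyme carried 2 barcodes. Columns summed to 955495 TPM (KO ectoderm), 917993 (WT ectoderm), 977371 (KO mesenchyme) and 969156 (WT mesenchyme). For 103 symbols found in several rows, none a member, the highest row was used.

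Log2 ratios used a pseudocount of 1 TPM and a mean of at least 1 TPM in the groups compared. A limma model was planned for values per library and could not be run. Members and lists were chosen with earlier results of these data known. All 36 members are accounted for, and other genes come from the listed sets, a few of which are not reported here. Transcript GC content and length are those of the longest GENCODE M21 transcript (GRCm38, the assembly of mm10), known for all 36 members and 99.2% of genes measured in mesenchyme. Lowess trends (fraction 0.3) used genes averaging 5 TPM or more. Exons of 13 members overlap another gene, 11 of them on the opposite strand. Alternatives were a pseudocount of 0.1 TPM, no filter, columns rescaled to 1000000, quantile normalization, GC and length trends, and subtraction of a mesenchyme share from KO ectoderm. Python 3.11.15, pandas 2.3.3 and statsmodels 0.14.6 were used, and scripts were tested on simulated data.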

Additional observations from a re-analysis of the deposited data

Results flagged for a closer look

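Nid2 and Itga5 had KO effects of opposite direction in the layers, each at least 1.5-fold. The ectoderm effect minus the mesenchyme effect was 2.45 for Nid2 and 1.89 for Itga5 on the log2 scale. With 1 value per group the difference between layers was not tested. After subtraction of the WT mesenchyme share from KO ectoderm, the ectoderm effect was 0.18 for Nid2 and 0.17 for Itga5, both within 1.5-fold. With the KO mesenchyme share it was 0.90 for Nid2, past 1.5-fold, and 0.53 for Itga5. The ectoderm effect of Itga5, 0.61 as deposited, was also within 1.5-fold with rescaled columns (0.56), quantile normalization (0.54), the GC trend subtracted (0.52) and the GC and length trends subtracted (0.53).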

How the results depend on the processing

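No paired analysis was possible because the columns carry 1 value per group and no replicate number, and no library could be left out. In ectoderm the 8 higher members became 5 with quantile normalization, 0 after subtraction of the WT mesenchyme share and 1 with the share taken from KO mesenchyme. The 0 lower members became 1 with the WT share. In mesenchyme the 11 lower members became 7 with quantile normalization (median -0.21), 4 after subtraction of the GC trend (median -0.22) and 4 after GC and length (median -0.16). The cause of the trend with GC was not tested. The 8 members whose ectoderm effect exceeded the mesenchyme effect 2-fold became 4 after subtraction of the WT share, and 6 with quantile normalization, with GC subtracted or with the KO share.

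Of the 70 member values past their fold, those that changed sign did so under the subtraction of a mesenchyme share. Values near 0 also changed sign under other settings, such as Hspg2 between the WT layers (-0.13 as deposited, 0.061 after GC subtraction). With the share from WT mesenchyme, Nid1 in ectoderm came to -0.63, and the ectoderm minus mesenchyme effect to -0.30 for Lama4, -0.061 for Nid1 and -0.017 for Itga8. With the share from KO mesenchyme, Nid1 in ectoderm was -0.15 and Frem1 -0.44, and the difference was -0.80 for Lama4 and -0.70 for Itga8. A pseudocount of 0.1 TPM and no filter left all 70 member calls past their fold, and rescaled columns 68. Counts between the WT layers kept within 1.5 times of those reported under every setting tried. TPM hold no depth, so the precision of low members such as Lamc3 and Itga1 is unknown.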
